A study of Caenorhabditis elegans with 2 samples.

Results

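The regions described here are places in the introns of protein-coding genes where the C. elegans factor MXL-2 was found on chromatin in L4 larvae, away from any annotated noncoding RNA gene. They were chosen by position alone. The whole-experiment list of thresholded peaks held 983 lines, which joined to 968 regions, and 285 of these had their summit in an intron and in no exon of a protein-coding gene. Of the 285, 116 overlapped a tRNA, rRNA, snoRNA, snRNA, miRNA, lincRNA, antisense RNA or other ncRNA gene and were left out. The remaining 169 regions, 17.5% of all (95% interval 15.1 to 20), lay in 139 host genes. A host gene is the gene in whose intron the summit lies, and no summit lay in introns of more than 1 gene.

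The chromatin came from whole worms of strain RW12316, in which mxl-2 at its own place on chromosome III was tagged by CRISPR insertion with TY1, EGFP and 3xFLAG, written st12316(mxl-2::TY1::EGFP::3xFLAG] III in the labels. The larvae had hatched after bleaching, were held as starved L1 and were collected at the L4 stage, at 48 h. Both biological replicates belong to this 1 group, all animals carry the tagged allele, and no untagged or input library was analysed here. Chromatin was sonicated to 200 to 800 bp, and the tagged protein was precipitated through GFP, while the antibody field names mxl-2. Because whole animals were used, binding in a few cells and weak binding in many cells cannot be told apart. The deposited lists give a signal for each peak, an enrichment set by the authors' peak caller on a scale of its own for each list. Read counts are not in these lists, and the sequencing depth behind a signal is therefore unknown.

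MXL-2 is a small basic helix-loop-helix leucine zipper protein related to mammalian Mlx. It pairs with MML-1, the worm's Mondo protein, and such pairs bind the E-box CACGTG. Mondo and Mlx proteins are known in mammals for turning on genes of sugar and lipid metabolism, and in worms for a part in lifespan. Introns of C. elegans are mostly very short, and the few long ones, often the first of a gene, are known to hold enhancers and the promoters of shorter isoforms.

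In all 10 regions of highest signal CACGTG lay within 50 bp of the summit, and the summit sequence is shown for 9 of them to let the site be seen in its context. The tenth, in daf-16, is not printed, and the next in signal with CACGTG, in atf-4, is shown as well. Each run is the summit base with 50 bp to either side, on the + strand of ce11 (RefSeq sequence of WBcel235), 5′ to 3′, with CACGTG in capitals. These letters read the same on both strands. They lie at IV:13395401-13395501 (Y62E10A.13), IV:6879078-6879178 (tre-2), X:6750230-6750330 (abts-4), II:13469353-13469453 and II:13462110-13462210 (both E01G4.3), V:19529342-19529442 (Y43F8B.2), X:10332454-10332554 (R07E3.4), X:17633300-17633400 (H18N23.2), V:5768487-5768587 (pgph-2) and X:14810034-14810134 (atf-4).
Y62E10A.13: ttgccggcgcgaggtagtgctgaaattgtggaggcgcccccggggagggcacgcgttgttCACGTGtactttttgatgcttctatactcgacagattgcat
tre-2: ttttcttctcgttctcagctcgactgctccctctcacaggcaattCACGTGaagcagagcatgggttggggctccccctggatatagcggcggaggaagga
abts-4: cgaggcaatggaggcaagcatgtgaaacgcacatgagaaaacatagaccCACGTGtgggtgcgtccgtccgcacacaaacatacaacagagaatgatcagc
E01G4.3, first intron: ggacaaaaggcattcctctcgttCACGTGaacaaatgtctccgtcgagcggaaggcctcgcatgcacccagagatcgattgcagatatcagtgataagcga
E01G4.3, second intron: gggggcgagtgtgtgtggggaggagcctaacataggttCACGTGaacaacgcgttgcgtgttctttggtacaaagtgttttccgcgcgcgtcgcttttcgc
Y43F8B.2: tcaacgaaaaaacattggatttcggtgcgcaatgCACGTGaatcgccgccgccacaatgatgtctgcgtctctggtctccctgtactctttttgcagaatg
R07E3.4: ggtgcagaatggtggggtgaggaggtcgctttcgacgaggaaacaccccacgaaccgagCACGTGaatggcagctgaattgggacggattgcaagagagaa
H18N23.2: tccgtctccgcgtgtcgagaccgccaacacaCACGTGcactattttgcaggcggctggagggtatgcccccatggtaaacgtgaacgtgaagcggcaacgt
pgph-2: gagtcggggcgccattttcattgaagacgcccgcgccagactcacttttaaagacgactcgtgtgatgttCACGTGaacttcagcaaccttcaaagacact
atf-4: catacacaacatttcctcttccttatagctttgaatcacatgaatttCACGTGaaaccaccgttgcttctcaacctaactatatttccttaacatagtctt

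In most of these 10 windows the base after CACGTG is A, or the base before it is T, which is the same on the other strand. Over all E-boxes within 50 bp of the intronic summits, 38 of 49 sites had it (77.6%, 95% interval 63.4 to 88.2). The share was 67.0% of 94 sites at intergenic regions away from noncoding RNA genes. Over introns in general, tiled in windows of the same length, it was 42.5% of 3776 sites. In windows 500 bp to either side of the intronic summits it was 4 of only 6 sites (66.7%, 95% interval 22.3 to 95.7). The fully symmetric form, with T before and A after, made up 18 of the 49 sites (36.7%), against 23.4% at the intergenic regions and 7.87% in introns in general. Sites with C before and G after were at 0 of 49 in the intronic regions, where the limit set by 3 counts of the total is 6.12%. They made up 6.38% at the intergenic regions and 13.9% in introns in general. These shares are descriptions of sites and were not tested.

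The strongest region lay in the first of 3 introns of Y62E10A.13, annotated as a phosphoserine phosphatase, an enzyme of serine synthesis (IV:13395271-13395615). Its signal was 2040.1 in the whole-experiment list, 1016 in replicate 1 and 1042 in replicate 2, the highest of any intronic region in each. The second lay in intron 3 of tre-2, which encodes a trehalase, an enzyme that splits the sugar trehalose (IV:6878972-6879276). Its signals were 1468, 739 and 731 in the same order, and this intron is only 356 bp long. The next lay in intron 17 of abts-4, which encodes an anion exchanger (X:6750117-6750489), with signals of 1292, 674 and 610. Its host's own 5′ end was 11458 bp away, and the nearest 5′ end was that of mdl-1, the Mad-like gene of the same network, at 7929 bp.

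The little-studied gene E01G4.3 held the fourth and the sixth strongest regions. The one in its first intron lay 199 bp from the 5′ end (II:13469233-13469545) and had signals of 1179, 573 and 604. The one in its second intron lay 7442 bp from it and at −1518 bp from the 5′ end of pqn-27, upstream of it (II:13462020-13462319), with signals of 712, 333 and 358. Between them stood Y43F8B.2, annotated with a GSKIP domain, with a region in its 9619 bp long intron 4 (V:19529231-19529541) and signals of 1033, 510 and 528. Replicate 2 had the slightly higher deposited signal in each of these regions, each replicate being on its own list's scale. It did so as well at H18N23.2, annotated as a regulatory subunit of protein phosphatase 1, with signals of 540, 262.5 and 271 in its first intron (X:17633239-17633482).

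R07E3.4, annotated as an ADP/ATP translocase of mitochondria, followed with signals of 653, 304 and 346 in its first intron (X:10332375-10332617). In the first intron of pgph-2, annotated as a phosphoglycolate phosphatase, the signals were 428, 192 and 226 (V:5768429-5768663). The fat-4 gene, which encodes a delta-5 fatty acid desaturase, had signals of 190.2, 97.7 and 93.7 at 422 bp from its 5′ end (IV:9799775-9799888). The replicates put these regions in the same order.

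Transcription factor genes were among the hosts. In daf-16, the FOXO factor downstream of insulin signalling, the region lay in intron 3, at 1299 bp from the 5′ end and 11306 bp ahead of the next isoform's start (I:10751709-10751914). Its signals were 421 in the whole experiment, 208 in replicate 1 and 214.5 in replicate 2, and the centre of its E-box lay 0.5 bp from the summit. The atf-4 gene, for a leucine zipper factor of the stress response, had signals of 347, 174 and 161 in its first intron (X:14809992-14810184). The nuclear hormone receptor gene nhr-46 had 232, 126 and 103.9 (IV:5756078-5756183). In intron 2 of mdl-1 the signals were 249, 114 and 131 at 639 bp from the 5′ end (X:6742939-6743098). All 4 had CACGTG.

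Protein kinase genes held 3 of the 25 strongest regions. The cGMP-dependent kinase gene pkg-2 had signals of 206, 117 and 85.8 in intron 4 (IV:8526290-8526355), with CACGTG. The calcium/calmodulin-dependent kinase gene cmk-1 (IV:1831251-1831510, signals 217, 106 and 100.8) and the DYRK-type kinase gene mbk-2 (IV:13026768-13026854, signals 201, 95.6 and 100.5) had none. The rest of the 25 were F22F7.7, annotated as a gamma-glutamylcyclotransferase that acts on glutathione (signals 366, 171 and 197), epg-9, the homologue of the autophagy protein ATG101 (289, 136 and 152), C30G4.4, with a TSC22 domain (194, 82.0 and 111), mom-1, the Porcupine enzyme that lets cells secrete Wnt (167, 59.2 and 108), lgg-2, of the LC3 family of autophagy (166, 105 and 66.8), and the F-box gene F43C9.1 (162, 82.0 and 80.1). They also included a second region each of abts-4 (158, 122 and 49.5) and Y43F8B.2 (156.0, 65.4 and 86.8). All 25 were listed in each replicate, and 18 of them had CACGTG (72.0%, 95% interval 50.6 to 87.9).

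**Figure D1:**
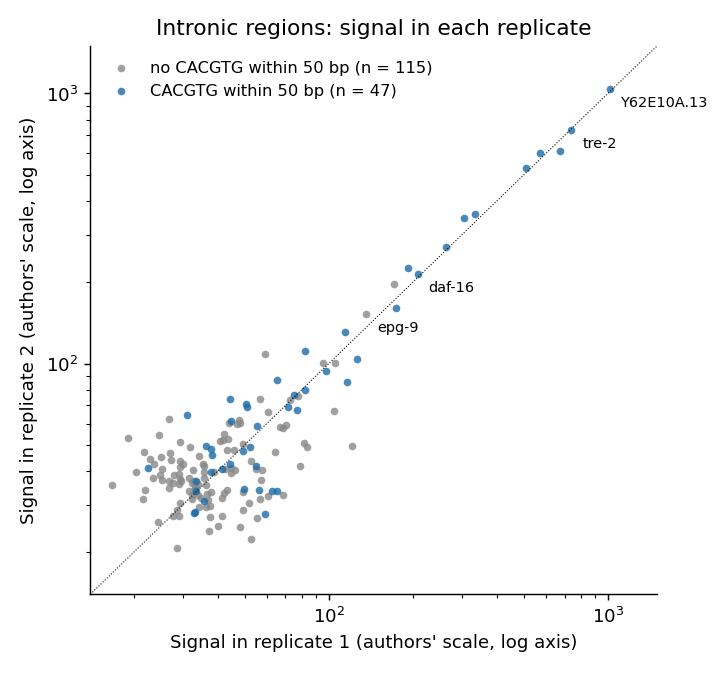
Signal of the intronic regions in replicate 1 (x axis) and replicate 2 (y axis), both on log axes and on the authors' scale, for the 162 regions that are candidates of both replicates. Each point is 1 region, blue with and grey without CACGTG at the summit (50 bp to either side), and the dotted line marks equal signal; the 10 strongest regions lie close to it, up to Y62E10A.13 at 1016 and 1042, while abts-4 at 122 and 49.5 and mom-1 at 59.2 and 108 are among those off it.

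Across all 169 regions the signal ran from 48.6 to 2040.1 with a median of 79.6 (95% interval 74.6 to 85.2), against 82.1 over all 968 regions. A signal above that overall median, which 50% of all regions have by construction, was found in 78 of the 169 intronic regions (46.2%) and in 216 of the 394 intergenic regions away from noncoding RNA genes (54.8%). This difference did not pass (odds ratio 0.706, 95% interval 0.492 to 1.01, two-sided Fisher's exact test, p = 0.0921 after Benjamini-Hochberg adjustment over the 7 tests of this kind). Here and below such tests count regions as independent, although some share a host gene.

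The lists of both replicates contained 47 of the 169 intronic regions (27.8%, 95% interval 21.2 to 35.2), where 29.9% of all 968 regions were in both. A further 24 were in the list of replicate 1 only, 21 in that of replicate 2 only, and 77 (45.6%) in neither. The share in both lists was 33.8% for the intergenic regions, a difference that did not pass (odds ratio 0.756, 95% interval 0.509 to 1.12, exact adjusted p = 0.169). As candidates of any rank, 165 of the 169 were present in replicate 1 and 166 in replicate 2. Their median signal was 42.2 in replicate 1 and 41.5 in replicate 2.

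For the 47 regions in both lists, Spearman's rho between replicates was 0.829 and the median fold between them 1.14. Over the 162 regions that were candidates of both, rho was 0.534 and the median fold 1.25. These values are across regions of the same libraries and describe their likeness only. The folds use the signals as deposited, and whether the scales of the replicates' lists are alike was not tested. In 5 of the 47 regions the replicates differed by over 1.5-fold, and these lay in mom-1, lgg-2, abts-4, sma-9 and pkg-2. None of those 5 had CACGTG wholly within 50 bp. The abts-4 region, with the largest fold, had a neighbouring region with CACGTG whose summit was 325 bp away. That neighbour was a candidate of replicate 2 only, with a signal of 60.5 there. Whether the replicates' lists divided the same signal differently was not tested. For the 27 regions in both lists with CACGTG the fold ran from 1.01 to 1.403, and for the 20 without it from 1.01 to 2.46. These ranges cover regions in both lists alone. Among regions with CACGTG outside that set, some differed more, as W06H8.6 (59.3 in replicate 1 and 27.8 in replicate 2) and M01H9.3 (31.0 and 64.8). Others were close, as T25B9.9 (41.4 and 40.7). The part of signal in these folds was not tested.

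The E-box was found within 50 bp of the summit in 48 of the 169 intronic regions (28.4%, 95% interval 21.7 to 35.8), against 16.2% of all 968 regions. In windows of the same length 500 bp to either side of the same summits it was found in 6 of 338 cases (1.78%, 95% interval 0.654 to 3.82). Over all introns, 1.37% of 276701 windows of this length held it. In the replicates' own lists the share among regions chosen by the same rule was 48.8% of 80 in replicate 1 and 39.7% of 78 in replicate 2 (44.2% ± 6.37, SD, n = 2), with 2.5% and 2.56% in their flanks. The share at intronic summits was far above that of their flanks in either replicate. The windows also differed in base composition, with a median GC content of 45.5% at summits, 36.1% in flanks and 31.7% over introns in general, and the part of GC content in these shares was not tested. Within the intronic regions, those with the E-box had a median GC content of 44.6% and those without it 46.5%.

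**Figure D2:**
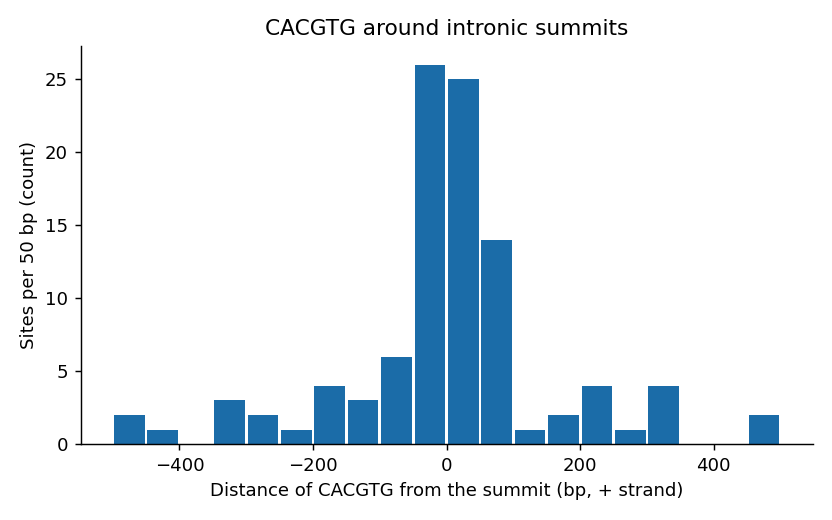
Position of CACGTG around the 169 intronic summits, as the number of sites (y axis) in each 50 bp step of distance from the summit (x axis, bp along the + strand). The steps on either side of the summit hold 26 and 25 sites, and no step beyond 100 bp holds more than 4.

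Distances are from the summit to the centre of the site. A CACGTG within 500 bp was present for 77 of the 169 regions, and the nearest lay at a median of 31.5 bp from the summit, close to the 32.5 bp of the intergenic regions. It lay at 1.5 bp in the strongest region of abts-4 and at 2.5 bp in that of tre-2. Of the 77, 66 had it within 100 bp. Near misses, not wholly within 50 bp, included D2030.2 and a region of pkg-2 at 49.5 bp, sma-9 at 52.5 bp, ppfr-1 at 56.5 bp and epg-9 at 65.5 bp. Sites were concentrated at the summits, with similar numbers on either side within 50 bp (26 and 25) but 6 from −100 to −50 bp and 14 from 50 to 100 bp.

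Intronic regions had the E-box in 28.4% and intergenic regions in 21.6% of cases, a difference that did not pass (48 of 169 against 85 of 394, odds ratio 1.44, 95% interval 0.956 to 2.18, exact adjusted p = 0.0983). It passed in some alternative settings, among them the stronger regions, and not in others. Above the median signal of all regions, 37 of 78 intronic and 60 of 216 intergenic regions had it (odds ratio 2.35, exact adjusted p = 0.0120). In the list of replicate 1 alone the counts were 39 of 80 and 48 of 188 (odds ratio 2.77, exact adjusted p = 0.00165), and in that of replicate 2 alone 31 of 78 and 51 of 195 (odds ratio 1.86, exact adjusted p = 0.0490).

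CACGTG was more frequent in strong than in weak intronic regions. Above the median signal of the intronic regions 39 of 84 had it (46.4%), among them those at tre-2, daf-16, fat-4 and egl-4, and at or below the median 9 of 85 (10.6%). The odds ratio was 7.32 (95% interval 3.25 to 16.5, exact adjusted p = 1.29e-06). In each replicate's own list the direction was the same. The counts were 25 of 40 against 14 of 40 in replicate 1 (exact adjusted p = 0.0412). In replicate 2 they were 24 of 39 against 7 of 39 (exact adjusted p = 0.000828). Both were adjusted over fewer than 7 tests. In 4 classes of nearly equal size by signal, from high to low, the share was 58.1%, 33.3%, 7.14% and 14.3%. The call was lost when regions at or below the overall median signal were left out (odds ratio 2.57, exact adjusted p = 0.0828). The median signal was 116 with the E-box and 73.4 without it. The same relation is known for the whole list, of which these regions are a part, so it is no independent support.

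**Figure D3:**
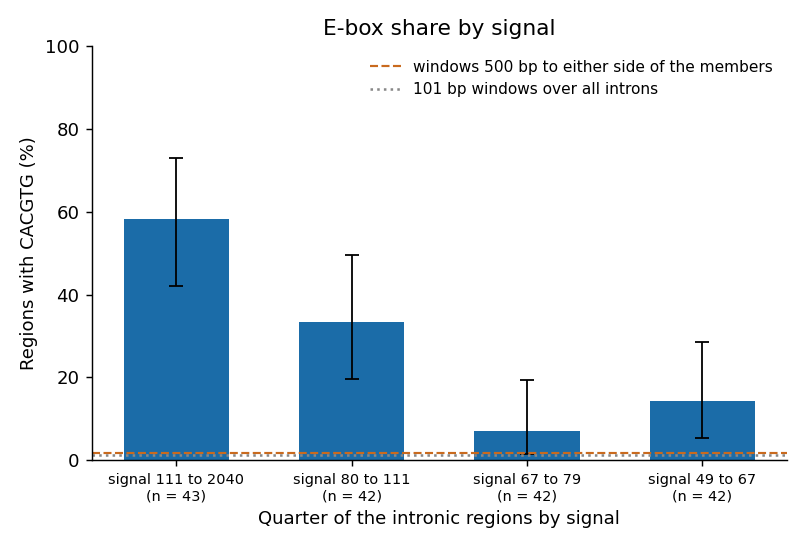
Share of intronic regions with CACGTG within 50 bp of the summit (y axis, %) in 4 classes of nearly equal size by signal (x axis), with exact 95% binomial intervals as error bars. The dashed line at 1.78% marks windows 500 bp to either side and the dotted line at 1.37% windows over all introns; the class of highest signal stands at 58.1% and the lower pair of classes at 7.14% and 14.3%.

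Regions with the E-box were also found in both replicates more often. Of the 48 with it, 27 were in both lists (56.2%), and of the 121 without it, 20 were (16.5%; odds ratio 6.49, 95% interval 3.08 to 13.7, exact adjusted p = 2.54e-06). Seen from the lists, 57.4% of the regions in both, 26.7% of those in 1 and 11.7% of those in neither had it. Signal moved with presence in the lists, at medians of 158, 85.7 and 67.3 for the same classes, and its part in this difference was not tested. With only regions above the overall median signal, the counts were 27 of 37 and 20 of 41, and the call was lost (odds ratio 2.835, exact adjusted p = 0.0570). Examples with the E-box and in neither list are the weakest region of Y62E10A.13 (signal 59.2) and one of pkg-2 (signal 78.0).

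Regions without CACGTG numbered 121. Of these, 18 held CACATG, a related E-box form, searched on both strands (14.9%, 95% interval 9.06 to 22.5), and over all intronic regions CACATG lay in 17.8% of summit windows, 4.73% of flanks and 2.56% of windows over introns in general. The other 8 kinds of CANNTG lay in 0.592% to 7.10% of summit windows and in 1.48% to 6.51% of flanks. The run CACGCG, not of this form, lay in 7.69% of summit windows, 1.18% of flanks and 1.12% of windows over introns in general. Its share was 7.11% at the intergenic regions, and 8 of the 121 regions without CACGTG held it. A further run of letters, GACGCAG on either strand, was searched after the summit sequences had been seen. It lay in 13 of the 121 regions without CACGTG (10.7%, 95% interval 5.85 to 17.7) and 3 of the 48 with it, in 1.18% of flanks and in 0.821% of introns in general. At the intergenic regions its share was 9.39%. No CACGTG, no form CACATG and no run GACGCAG was found in 91 of the 169 regions (53.8%), whose median signal was 72.0 and the strongest of which lay in cmk-1. A match of letters is a description, and its absence here concerns this window alone.

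The strongest windows without CACGTG are shown for F22F7.7 (V:2133697-2133797), epg-9 (IV:2602116-2602216) and mbk-2 (IV:13026776-13026876), because they show CACATG or GACGCAG. At epg-9 a CACGTG lay 65.5 bp from the summit, just outside the printed window. At F22F7.7 and mbk-2 none lay within 500 bp. They are printed as before, with CACATG in either orientation, or GACGCAG in either orientation, in capitals. The cmk-1 window, stronger than that of mbk-2, held none of them and is not printed. It is made of near copies of a short run of letters, one after another. In mbk-2 the capitals are CACATG overlapped by its own reverse complement.
F22F7.7: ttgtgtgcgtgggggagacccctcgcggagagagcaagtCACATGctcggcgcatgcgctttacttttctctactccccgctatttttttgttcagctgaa
epg-9: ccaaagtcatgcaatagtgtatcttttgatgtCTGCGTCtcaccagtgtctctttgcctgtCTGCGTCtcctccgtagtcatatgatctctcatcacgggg
mbk-2: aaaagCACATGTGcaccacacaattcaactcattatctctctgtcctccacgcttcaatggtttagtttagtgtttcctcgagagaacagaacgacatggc

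A single region held a pair of CACGTG with starts at most 25 bp apart, against 10 of 394 intergenic regions. It lay in the 86515 bp long first intron of cox-6B, which encodes a subunit of cytochrome c oxidase, 69172 bp from the host's 5′ end and upstream of swsn-3, at −156 bp from its 5′ end (III:2768705-2768964). The sites were separated by 18 bp. The region was weak, with signals of 64.5 in the whole experiment, 33.3 in replicate 1 and 28.3 in replicate 2, and it was in neither replicate's thresholded list.

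Long introns held most of the regions. The median length of the intron around a summit was 2459 bp, with quartiles at 643 and 5251 bp, while the median intron of the longest transcript of each gene was 63 bp and the median intron base lay in an intron of 911 bp. Introns over 1000 bp held 119 of the 169 regions (70.4%), although they made up 6.71% of introns and 46.7% of intron bases. As many, 119, lay in the longest intron of their host transcript, which over all genes holds 48.5% of intron bases. Exceptions were short introns such as the 289 bp one in mdl-1 and the 53 bp one in srx-125, a chemoreceptor gene, where the region is wider than the intron. Host genes were long as well, with a median span over regions of 8560 bp against 2097 bp for all genes with an intron. These are descriptions of position, with no test.

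**Figure D4:**
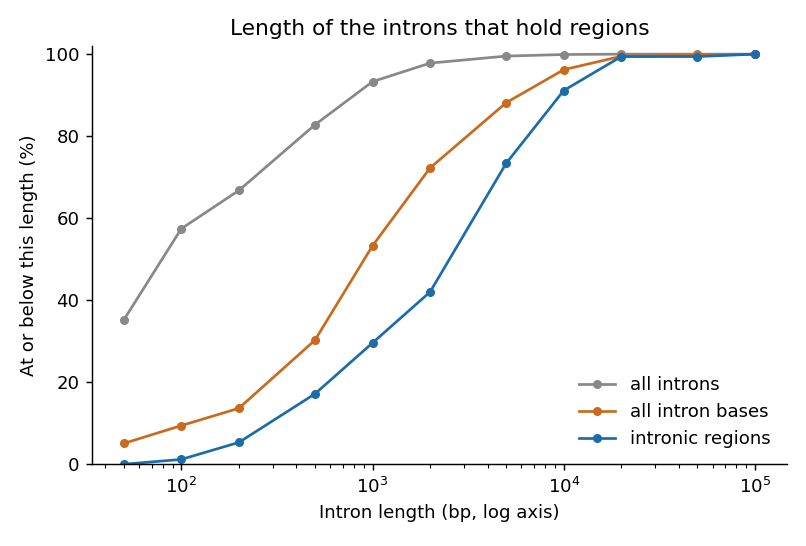
Cumulative share (y axis, %) of the 169 intronic regions, of all introns and of all intron bases by intron length (x axis, bp, log axis). At 1000 bp the line of the regions stands at 29.6%, that of intron bases at 53.3% and that of introns at 93.3%.

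By number, 57 of the 169 regions lay in the first intron of the host transcript (33.7%, 95% interval 26.6 to 41.4). First introns make up 18.7% of introns and 23.9% of intron bases. The introns in general were counted in the longest transcript of each gene. The regions were numbered in a host transcript that has the summit in an intron, which can be another one. In the replicates' lists the share was 35.0% and 38.5% (36.7% ± 2.45, SD, n = 2). Introns numbered 2 held 23 regions, those numbered 3 held 18, introns 4 and 5 together 32, introns 6 to 10 together 28 and later ones 11. Among the strongest, first introns were those of Y62E10A.13, E01G4.3 and R07E3.4, while tre-2, abts-4 and Y43F8B.2 had theirs further in.

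**Figure D5:**
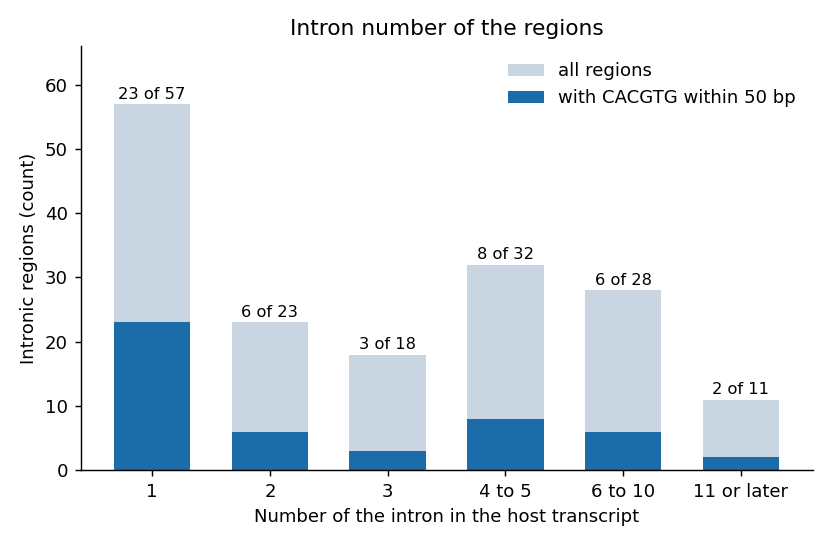
Number of intronic regions (y axis) by the number of the intron in the host transcript (x axis), in light blue for all regions and in dark blue for those with CACGTG within 50 bp. First introns hold 57 regions, 23 of them with CACGTG, and no other class has an E-box share above 26.1%.

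First introns had the E-box more often than later ones. It was present in 23 of 57 regions of first introns (40.4%), such as those at atf-4, nhr-46, sir-2.2, a mitochondrial sirtuin gene, and atg-2, an autophagy gene, and in 25 of 112 of later introns (22.3%). The odds ratio was 2.35 (95% interval 1.18 to 4.7, exact adjusted p = 0.0329), and it was 3.38 in replicate 1 and 3.18 in replicate 2 (exact adjusted p = 0.0412 and 0.0479). The call ended with a single region per host gene (odds ratio 2.46, exact adjusted p = 0.0519), in the conservative list (odds ratio 1.53, exact adjusted p = 0.232) and where any transcript's first intron counted (odds ratio 1.22, exact adjusted p = 0.611), and so it is not stable to these choices. Median signals were 84.6 in first and 78.2 in later introns, and median GC contents 47.5% and 44.6%; the part of either was not tested.

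Most intronic regions were far from the start of any gene. The nearest protein-coding 5′ end lay over 1000 bp away for 131 of the 169 (77.5%, 95% interval 70.5 to 83.6), against 197 of the 394 intergenic regions (50%), and at a median of 2442 bp. For 110 regions the nearest 5′ end was the host's own. For the other 59 it was that of another gene, and 41 of them lay upstream of that gene, like the E01G4.3 region at −1518 bp from pqn-27 and the M05D6.5 region at −855 bp from lact-4. Isoforms add further starts. In 43 regions (25.4%) a transcript of the host began within 1000 bp downstream of the summit, as at tre-2, where an isoform starts 251 bp ahead, and at fat-4, at 444 bp. With every transcript's start counted, 55.0% of the regions were over 1000 bp from any. Where an isoform start lay that near, regions had the E-box in 27.9% and those without in 28.6% of cases.

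Near the 5′ ends the E-box was more frequent. Within 1000 bp it was present in 17 of 38 regions (44.7%), such as those at mdl-1, R07E3.4 and gpdh-2, a glycerol-3-phosphate dehydrogenase gene, and beyond it in 31 of 131 (23.7%; odds ratio of far to near 0.383, 95% interval 0.18 to 0.815, exact adjusted p = 0.0329). In each replicate's own list the direction was the same and the call was lost (odds ratio 0.617, exact adjusted p = 0.544 in replicate 1, and 0.491, exact adjusted p = 0.247 in replicate 2). It was also lost at 500 bp (0.550, exact adjusted p = 0.290), at 2000 bp (0.729, exact adjusted p = 0.393) and with all transcript starts (0.670, exact adjusted p = 0.304). First introns and nearness overlap, since 24 of the 38 near regions were in first introns. The counts with the E-box were 12 of 24 for near and 11 of 33 for far regions of first introns, and 5 of 14 and 20 of 98 for those of later introns.

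Several host genes carried more than 1 region. There were 17 such genes, with 47 regions among them, and 14 introns held 2 or more regions, whose neighbouring summits lay 325 to 4854 bp apart with a median of 1648.5 bp. The most, 5, were in pkg-2, in introns 4 and 5, with signals from 70.7 to 206; 3 of them had CACGTG and 3 were in both replicates' lists. Y43F8B.2 held 4, whose signals were 1033, 156.0, 99.1 and 48.6, the upper pair with CACGTG. In pqn-41, which encodes a polyglutamine protein, all 4 lay in intron 14 with even signals of 71.4 to 94.1, none with CACGTG and none in both lists.

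Another 6 genes had 3 regions each. In Y62E10A.13 the signals were 2040.1, 86.9 and 59.2, all in its first intron, so 1 summit stood far above its neighbours. In abts-4 they were 1292, 158 and 63.8 (the last no candidate of replicate 1), in E01G4.3 1179, 712 and 75.5, and in H18N23.2 540, 151 and 104.8. Each of these 4 genes had CACGTG at 2 of its 3 regions. In zfp-1, a zinc finger gene (128, 74.1 and 70.3), and brc-1, the BRCA1 homologue (92.5, 65.9 and 62.9), no region had CACGTG.

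Host genes were compared with gene lists of known pathways by count only, since 0.721% of the 19288 protein-coding genes with an intron were hosts. The lists do not hold every gene of a pathway, so a count covers its list alone. Hosts outside these lists include mom-1, for Wnt secretion, and epg-9, for autophagy. Others are daf-5, a homologue of Ski, and W06H8.6, with a bHLH domain. Lipid or sugar enzyme genes outside the lists include acl-14 (acyltransferase), ipla-3 (phospholipase A2), gpdh-2 and T25B9.9 (6-phosphogluconate dehydrogenase), with CACGTG. The lipase gene lips-10 is outside them too, without CACGTG. Of the Myc-Max-Mondo network, 1 of 5 genes was a host, mdl-1. Of 8 genes of trehalose synthesis and breakdown, the hosts were tre-2 and tre-1, both trehalases. The tre-1 region lay in intron 5 with signals of 147, 77.7 and 76.0 and no CACGTG, and tre-2 had a further region in intron 2 (signal 89.2) with it. Of 26 genes of insulin and AMPK signalling 4 were hosts. Besides daf-16 these were skn-1, the Nrf factor of the oxidative stress response (64.9, 34.2 and 32.6), pdk-1, a kinase that activates AKT (66.4, 28.0 and 38.7), and aakg-1, a regulatory subunit of AMPK (63.7, 22.9 and 44.3). None of those 3 had CACGTG within 50 bp.

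Lipid metabolism had 2 hosts of 26 genes, fat-4 and pod-2, an acetyl-CoA carboxylase (69.6, 33.1 and 34.4), and fat-4 had a second region in its last intron (75.3, 47.9 and 24.7). The autophagy and lysosome list of 26 had lgg-2 and atg-2 (113, 55.4 and 58.7). Glycolysis and sugar metabolism had 1 of 27, the hexokinase gene hxk-1 (70.6, 31.6 and 37.8), and the other bHLH factors 1 of 24, hlh-30, the TFEB homologue (72.2, 26.96 and 46.7). The atg-2 region had the E-box and was in the list of replicate 2 only, while those of pod-2, hxk-1 and hlh-30 had no CACGTG and were in neither list.

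The remaining lists had 0 to 2 hosts each. Axon guidance and synapse genes had 2 of 24, egl-4, a cGMP-dependent kinase gene with a region 24171 bp inside the gene (142, 71.2 and 69.3, with CACGTG), and unc-104, the kinesin of synaptic vesicle transport (111, 47.6 and 61.7, without). Wnt and TGF-beta signalling had 2 of 25, sma-9, a zinc finger cofactor of Smad proteins (136, 83.8 and 49.3 for its stronger region), and the Smad gene daf-14 (106, 52.05 and 49.1, with CACGTG). Nuclear hormone receptors had 2 of 269, nhr-46 and nhr-19 (99.4, 46.9 and 59.8), homeobox genes 1 of 64, ceh-60 (62.2, 37.9 and 33.4), and TWK and SHK potassium channels 1 of 44, twk-45 (64.6, 37.4 and 24.0). Muscle structure genes had 0 of 25, cuticle collagens 0 of 143 with an intron, and guanylate cyclases 0 of 31. No list was tested, and because hosts are long genes, gene length moves with these counts and its part was not tested.

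By chromosome, 37 regions lay on IV and 37 on X (21.9% each), which hold 17.3% and 16.3% of intron bases. Chromosomes II and III held 26 and 29 (15.4% and 17.2%, against 14.2% and 15.99% of intron bases), and I and V 20 each (11.8%, against 18.1% for both). The E-box share differed among them. On chromosome V it was present in 9 of 20 regions, among them those at Y43F8B.2, pgph-2 and smk-1, a phosphatase 4 subunit gene, and on IV in 14 of 37. On chromosome I it was present in 1 of 20, at daf-16. The next in signal there, D2030.2 (149), tre-1 (147) and ppfr-1 (111), had none wholly within 50 bp. The nearest CACGTG lay at 49.5 bp from the summit at D2030.2 and at 56.5 bp at ppfr-1, while tre-1 had none within 500 bp. Median signals were 91.7 on V and 71.8 on I, and neither difference was tested.

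More than 50% of the bases were soft-masked in the reference, which marks repeats and simple sequence, in 22 of the 169 summit windows (13.0%), against 29.0% of flanks and 13.7% of the intergenic summits. With CACGTG it was 2 of 48 and without it 20 of 121. The repeated run in the cmk-1 window was not marked, with 0% of its bases soft-masked, so these counts can miss repeats. Beyond the rule's noncoding RNA classes, 2 regions overlapped a pseudogene, in unc-104 and brc-1, and none a piRNA gene.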

How the data were processed

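Peak lists on ce11 were analysed, made by the authors from the alignments of each replicate or of both and further input files, per the READMEs deposited with the samples, which do not give their type. Aligner and caller names, not given in the sources used here, are left out. Each deposited signal is the peak caller's enrichment, and the deposited −log10 column of the ranked lists holds that of the irreproducible discovery rate, which is 0.01 or lower for lines of thresholded lists. Overlapping lines were joined, keeping the strongest summit. Ensembl release 115 gave exons and introns, and RefSeq WBcel235 the sequence, products and symbols (19962 of 19973 protein-coding genes matched). Introns were numbered in the host transcript with the most exon bases among those with the summit in an intron. A region was in a replicate's list with 1 bp of overlap, and its replicate signal is that of the strongest overlapping candidate. Shares have exact (Clopper-Pearson) 95% intervals for counting error only, and odds ratios 95% intervals from the normal approximation of their logarithm. Two-sided Fisher's exact tests, adjusted by Benjamini-Hochberg over 7 tests at 0.05, used scipy 1.17.1 and were tested on simulated data. In the replicates' own lists, and with only regions above the overall median signal, fewer than 7 tests applied and the adjustment covered those. The named genes are hosts of the 25 strongest regions, of regions with paired E-boxes, of 3 or more regions, and up to 4 per gene list; others named as examples were chosen after their values were seen. The regions and lists were chosen with earlier results of these data known. Alternatives covered the list, threshold, replicate, joining, noncoding rule, E-box window and letters, transcript, distance and overlap.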

Additional observations from a re-analysis of the deposited data

How the results depend on the processing

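Of 119 alternative values, 83 kept their direction and their side of the threshold or stayed within the interval. For the number of regions, a range of 1.5-fold either way took the place of the interval. The other values follow, and the cause was not tested unless the construction shows it. No paired analysis was possible because both replicates belong to 1 group. Leaving out either replicate, by using the other's list alone, gave 78 to 80 intronic regions, a median signal of 60.7 to 61.5, an E-box share of 39.7% to 48.8%, an odds ratio of intronic to intergenic E-boxes of 1.86 to 2.77 (past the threshold in both) and a far to near odds ratio of 0.491 to 0.617 (no longer past it). Keeping only signals above the overall median left 78 regions with a median of 119 and an E-box share of 47.4%, took the intronic to intergenic odds ratio past the threshold (2.35), and ended the calls for upper against lower signal (2.57, exact adjusted p = 0.0828) and for both replicates by E-box (2.835, exact adjusted p = 0.0570), with fewer regions and a narrower range of signal. The E-box share was 19.5% within 25 bp and 39.1% within 100 bp or with CACATG counted, and within 100 bp the intronic to intergenic odds ratio passed (1.65, exact adjusted p = 0.0234). The first intron share was 48.5% with any transcript counted, and the far share 88.2% at 500 bp, 55.6% at 2000 bp and 55.0% with every transcript's start. The first intron call for the E-box was lost in the conservative list (1.53), with 1 region per gene (2.46), within 25 bp (2.18), within 100 bp (1.88), with CACATG (1.68) and with any transcript's first intron (1.22). The far to near call was lost in the conservative list (0.478), with only summits in noncoding RNA genes left out (0.488), within 100 bp (0.560), at 500 bp (0.550), at 2000 bp (0.729) and with every transcript's start (0.670). No value reversed. Depth is unknown, so it cannot be said which weak regions it limits.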
